A study of Mus musculus with 12 samples.

Results

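Levels of 10 genes encoding glutamate receptor subunits were examined on 12 one-colour mouse brain arrays: the AMPA receptor subunits Gria1, Gria2, Gria3 and Gria4, the NMDA receptor subunits Grin1, Grin2a, Grin2b and Grin2c, and the metabotropic receptors Grm3 and Grm5. The genes were chosen by symbol, and a probe was assigned to one of them when the accession in its annotation belonged to that gene. They were covered by 18 of the 39429 probes on the array. Gria1, Grin2c and Grm3 rested on 1 probe each, so their values could not be compared between probes. The 10 genes were all among the 19648 genes that passed a signal filter on all 12 arrays. All 18 probes passed that filter and were well above background on all 12 arrays by the scanner software's call, so no level below is a bound.

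Each array carried RNA from 3 animals pooled, and 1 array stands for each model. The aged cortex set held prefrontal cortex of untreated C57BL/6 mice at 1.5, 4, 17 and 22 months. The transgenic hippocampus set, labelled C57BL/6, held NCSTN mice (10 months, overexpressing a mutated human NCSTN gene), MAPT mice (12 months, overexpressing wild-type human MAPT) and 5×FAD mice (6 months, whose transgenes include human APP with the Swedish, Florida and London mutations). The ICR hippocampus set held ICR mice aged 7 weeks at purchase and treated with aggregated Aβ at 5 or 10 µM or streptozotocin at 2.5 or 3 mg/kg, given into the cerebral ventricle 14 days before dissection, or with scopolamine at 1 mg/kg, given intraperitoneally 30 minutes before. The promoters that drive the transgenes are not given in the sources used here, and arrays of control littermates or vehicle-treated mice were not analysed here. Because the arrays of a set are different ages or models and not repeats of one condition, the spread within a set includes those differences, and every p-value below is set against that spread. Between cortex and hippocampus, the region cannot be told apart from age, transgene or injection, and for the ICR set from strain as well. For the transgenic set it cannot be told apart from sex either, by the Xist and Y-linked signals given next. Between the transgenic and ICR hippocampus sets, transgene, injection, age, strain and sex by those signals differ together.

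The 3 transgenic arrays also differed from their description in the methods, which give male mice. Xist, transcribed from the inactive X chromosome, had log2 signals between 9.20 and 9.58 on these 3 arrays and was not well above background on the other 9, while the Y-linked genes Ddx3y, Eif2s3y, Kdm5d and Uty were not well above background on any of the 3. Each receptor gene called with the transgenic set, and each list count, is therefore also given with the ICR set alone. The 5×FAD array stood apart from the NCSTN and MAPT arrays over all genes, and results that rest on it are given with and without it. The tissue labels matched regional markers in most cases: 4 of 5 cortex markers were higher in cortex, the exception being Fezf2, and 8 of 9 hippocampus markers were lower in cortex, the exception being Wfs1.

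Glutamate is the main excitatory transmitter of cortex and hippocampus. AMPA receptors are tetramers of Gria1 to Gria4 products that carry the fast synaptic current, and Gria2 makes the channel nearly impermeable to calcium. NMDA receptors pair the obligatory Grin1 subunit with Grin2 subunits, need coincident glutamate and depolarization, and pass the calcium that starts lasting synaptic change, while Grm5 couples to Gq and Grm3 to Gi proteins.

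The 250 bases upstream of the annotated start are shown for 3 of the 5 members found in the RefSeq promoter table (assembly GRCm38.p6). Gria4 and Grm3 are shown because both were higher in cortex, and Grin1 because it was not called. Bases are in gene orientation, 5′ to 3′, all from the minus strand: Gria4 at chr9:4796235-4796484, Grm3 at chr5:9725353-9725602 and Grin1 at chr2:25319188-25319437. Capitals mark GGGCGG, the core of the GC box that Sp family factors bind, or CACGTG, an E-box, searched on both strands.
Gria4: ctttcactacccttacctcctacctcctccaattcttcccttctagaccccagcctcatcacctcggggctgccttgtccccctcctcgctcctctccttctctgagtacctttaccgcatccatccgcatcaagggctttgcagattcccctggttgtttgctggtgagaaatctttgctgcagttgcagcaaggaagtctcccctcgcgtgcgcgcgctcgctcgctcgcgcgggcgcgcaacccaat
Grm3: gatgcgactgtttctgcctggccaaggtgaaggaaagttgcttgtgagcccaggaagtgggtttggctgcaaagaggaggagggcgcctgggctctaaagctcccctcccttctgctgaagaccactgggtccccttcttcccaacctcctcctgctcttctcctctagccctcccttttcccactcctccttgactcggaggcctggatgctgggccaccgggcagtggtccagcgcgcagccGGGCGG
Grin1: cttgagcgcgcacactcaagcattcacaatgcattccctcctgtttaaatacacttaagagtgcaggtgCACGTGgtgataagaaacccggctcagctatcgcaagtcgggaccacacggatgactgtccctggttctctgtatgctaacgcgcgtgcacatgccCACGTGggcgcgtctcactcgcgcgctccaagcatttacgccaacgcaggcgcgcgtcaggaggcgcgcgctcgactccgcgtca
The Gria4 window held neither motif, Grm3 held 1 GGGCGG at its 3′ end and Grin1 held 2 CACGTG. Of 32851 mouse promoter windows of the same length, 32.7% held GGGCGG and 6.02% held CACGTG. The other members in the table were Gria2, with neither motif, and Grin2c, with 3 GGGCGG. None of the 5 held TATAAA or TGACGTCA, which 12.4% and 1.55% of all windows held. GC content ran from 58.8% in Gria4 and Grin1 to 68.8% in Grin2c, against a median of 52.4%.

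The first comparison asked which receptor genes differ between cortex and hippocampus. Gria3, Gria4 and Grm3 were higher in cortex and Gria1, Grin2a and Grm5 were lower, so that 6 of 10 genes passed the test at a Benjamini-Hochberg adjusted p of 0.05, with 3 in each direction. Of all 19648 genes, 30.4% passed, 15.9% higher and 14.5% lower in cortex. The median difference of the 10 genes was -0.17, with a range from -1.49 to 0.91, against a median of 0.01 over all genes. Differences are log2 signals of the cortex mean minus the mean of the 2 hippocampus set means, from a limma fit with the 3 sets as groups. For 5 of the 10 genes no cortex array overlapped any hippocampus array (Gria3, Gria4 and Grm3 above, Gria1 and Grm5 below). Of all genes, 17.3% were separated in this way, 9.21% above and 8.06% below. In whole tissue, fewer cells of a type and less RNA per cell cannot be told apart.

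**Figure D1:**
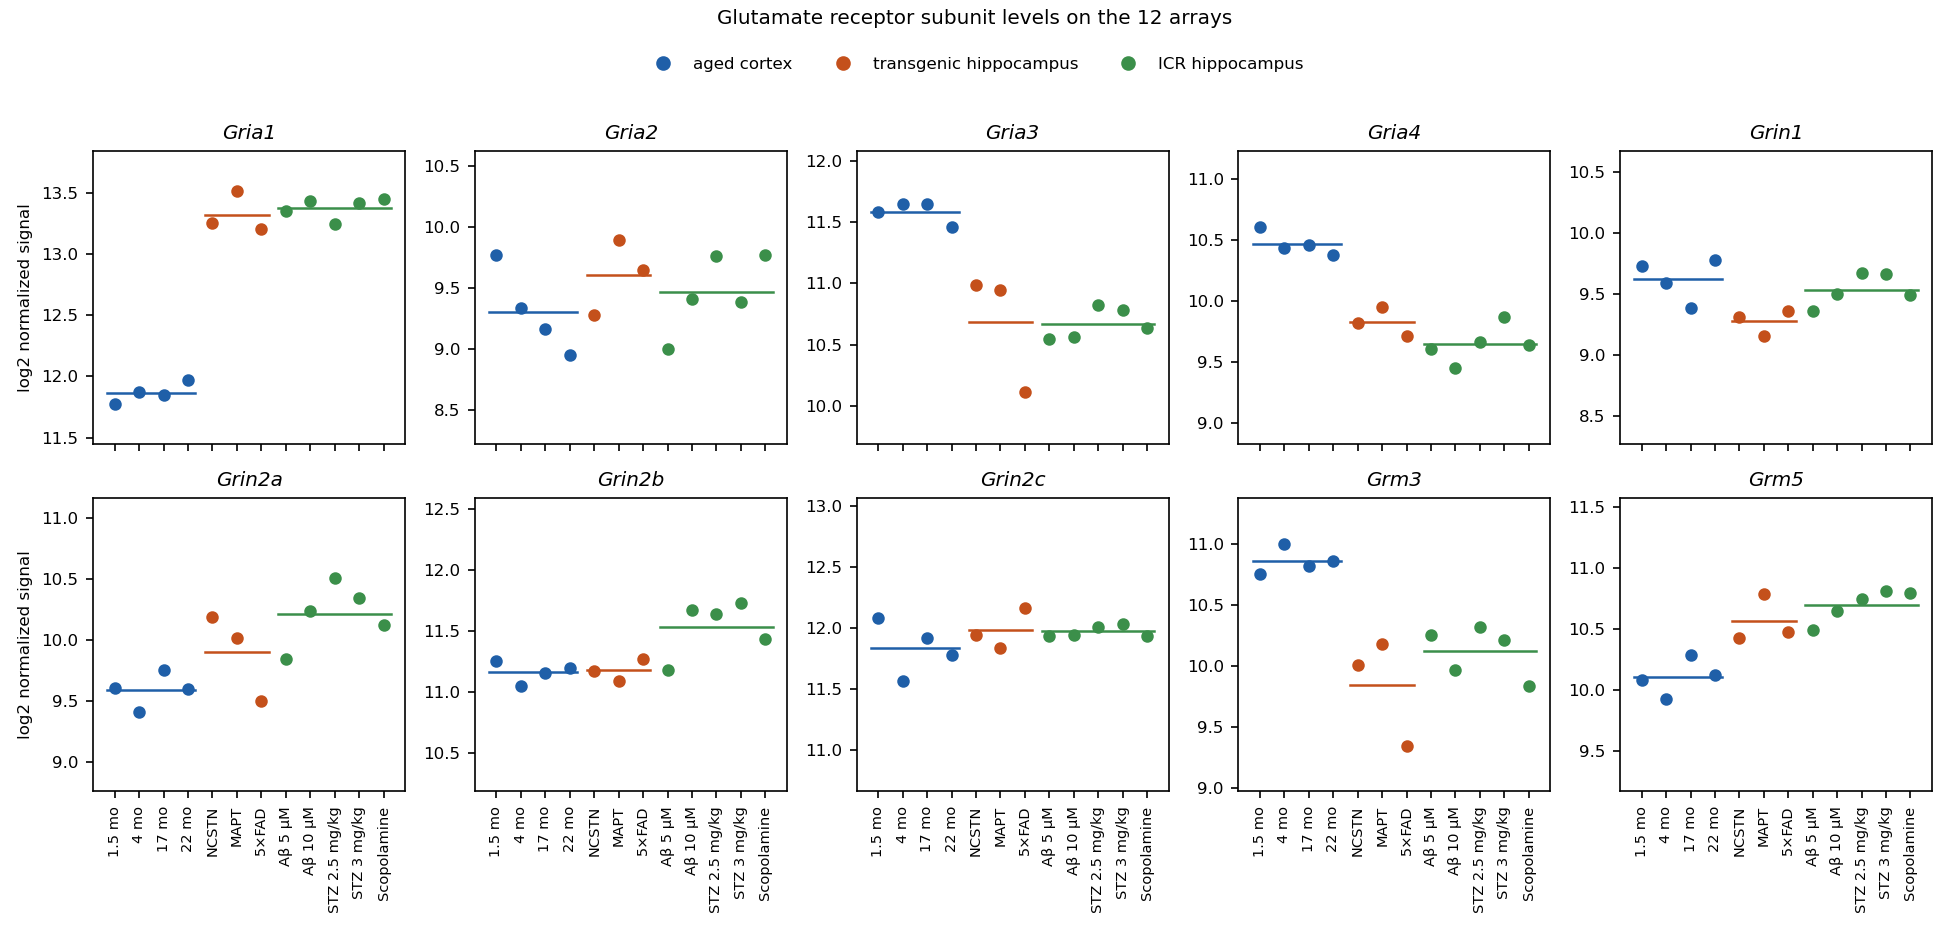
Log2 normalized signal (y axis, with the same span but a different offset in each panel) of the 10 receptor genes on the 12 arrays (x axis), with 1 point per array and a line at each set mean. The cortex points of Gria1 and Grm5 lie below every hippocampus point, and those of Gria3, Gria4 and Grm3 lie above.

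Among the AMPA receptor subunits, Gria1, whose product is recruited to synapses in an activity-dependent way, had the largest difference of the 10 genes. Its log2 signal was 11.78, 11.87, 11.85 and 11.97 in cortex at 1.5, 4, 17 and 22 months. It was 13.25 in NCSTN, 13.52 in MAPT and 13.21 in 5×FAD hippocampus. On the ICR arrays it was 13.35 and 13.43 after Aβ at 5 and 10 µM, 13.25 and 13.42 after streptozotocin at 2.5 and 3 mg/kg, and 13.45 after scopolamine. The lowest hippocampus array thus lay more than a log2 unit above the highest cortex array. The difference was -1.49 (SE 0.08, adjusted p = 6.09e-07), which is 2.80-fold lower in cortex. It was -1.46 against the transgenic set (SE 0.09, adjusted p = 6.59e-06) and -1.52 against the ICR set (SE 0.08, adjusted p = 8.94e-07). These last comparisons share the 4 cortex arrays.

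Gria3 and Gria4 ran the other way. Gria3, whose product often assembles with that of Gria2, stood at 11.59, 11.65, 11.65 and 11.46 in cortex from 1.5 to 22 months. It stood at 10.99 in NCSTN, 10.94 in MAPT and 10.11 in 5×FAD hippocampus, and between 10.55 and 10.82 on the 5 ICR arrays. The cortex arrays were all above the hippocampus arrays, and the 5×FAD array was the lowest of the 12. The difference was 0.91 (SE 0.15, adjusted p = 0.00121), 1.88-fold higher in cortex, and 0.77 (adjusted p = 8.50e-05) without the 5×FAD array. Against the transgenic set it was 0.91 with that array and 0.62 (adjusted p = 0.00363) without it, and against the ICR set it was 0.92 (SE 0.16, adjusted p = 0.00147). Both Gria3 probes gave it, at 0.93 and 0.89.

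Gria4, whose product forms fast-gating AMPA channels found in many interneurons, was 10.61, 10.43, 10.46 and 10.37 in cortex from 1.5 to 22 months. It was 9.82 in NCSTN, 9.95 in MAPT and 9.71 in 5×FAD hippocampus, and between 9.45 and 9.87 on the ICR arrays. Again no hippocampus array reached the lowest cortex array. The difference was 0.73 (SE 0.09, adjusted p = 1.47e-04), 1.66-fold higher in cortex. Against the transgenic set it was 0.64 (SE 0.11, adjusted p = 0.00242) and against the ICR set 0.82 (SE 0.09, adjusted p = 9.22e-05). The 2 Gria4 probes differed in size: probe A_52_P349182 gave 1.02 (adjusted p = 0.00122) and probe A_55_P1987725 gave 0.45 (adjusted p = 0.0339). On the 5×FAD array the first probe was at its lowest, 8.29, while the second was at 11.14, within its cortex range of 10.98 to 11.49. With the second probe alone, the difference from the transgenic set was 0.39 and was no longer called (adjusted p = 0.15).

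Gria2 was the AMPA subunit without a regional call. It was 9.77, 9.33, 9.16 and 8.95 in cortex from 1.5 to 22 months, 9.28 to 9.89 in transgenic hippocampus and 9.0 to 9.77 in ICR hippocampus. The 3 sets overlapped throughout. The difference was -0.23 with a 95% interval from -0.65 to 0.19 (adjusted p = 0.39), so a change of 1.5-fold lower in cortex lies inside the interval. Its SD within cortex, 0.35 over the 4 arrays, was the largest of the 10 genes there.

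**Figure D2:**
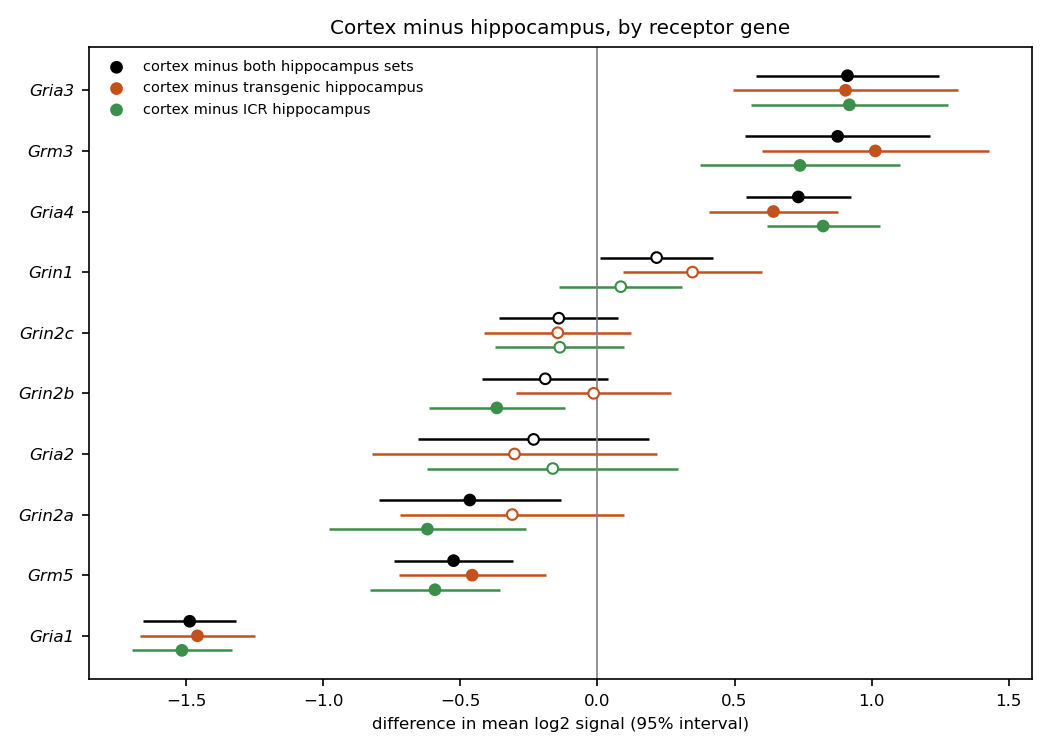
Cortex minus hippocampus difference in log2 signal (x axis) for the 10 genes (y axis), with 95% intervals from the limma fit, against both hippocampus sets, the transgenic set alone and the ICR set alone. Filled points passed an adjusted p of 0.05. Gria3, Grm3 and Gria4 lie above 0 and Gria1 and Grm5 below 0 in all 3 comparisons, while Grin2a and Grin2b were called against the ICR set and not against the transgenic set.

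Among the NMDA receptor subunits, Grin2a was lower in cortex, and Grin1, Grin2b and Grin2c were not called. Grin2a, the subunit that rises as synapses mature, was 9.61, 9.41, 9.75 and 9.60 in cortex from 1.5 to 22 months. It was 10.19 in NCSTN, 10.02 in MAPT and 9.50 in 5×FAD hippocampus. On the ICR arrays it was 9.85 and 10.24 after Aβ at 5 and 10 µM, 10.51 and 10.34 after streptozotocin at 2.5 and 3 mg/kg, and 10.12 after scopolamine. The 5×FAD array lay inside the cortex range and the other 7 hippocampus arrays lay above it. The difference was -0.47 (SE 0.15, adjusted p = 0.0371), 1.38-fold lower in cortex. It was not called against the transgenic set (-0.31, adjusted p = 0.27) and was called against the ICR set (-0.62, SE 0.16, adjusted p = 0.0124). The call over both sets was lost when any of 8 of the 12 arrays was left out, among them 3 of the 4 cortex arrays, with adjusted p-values up to 0.11, and without the 5×FAD array it was -0.57 (adjusted p = 0.00796).

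Grin2b, the subunit that dominates early in development and binds CaMKII, was 11.25, 11.05, 11.16 and 11.20 in cortex from 1.5 to 22 months and 11.17, 11.09 and 11.27 in NCSTN, MAPT and 5×FAD hippocampus. On the ICR arrays it was 11.18 and 11.67 after Aβ at 5 and 10 µM, 11.64 and 11.73 after streptozotocin at 2.5 and 3 mg/kg, and 11.43 after scopolamine. The cortex and transgenic arrays lay within the same narrow range, and 4 of the 5 ICR arrays lay above it. Against the ICR set the difference was -0.37 (SE 0.11, adjusted p = 0.0262), and against the transgenic set it was -0.01 with a 95% interval from -0.30 to 0.27. Over both sets it was -0.19 (adjusted p = 0.19). The call against the ICR set was lost with 5 of 9 arrays left out in turn. In the deposited value table, where the ICR arrays follow a distribution of their own, the difference from that set was 0.015.

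Grin1, present in every NMDA receptor, ranged from 9.38 to 9.78 in cortex, 9.16 to 9.35 in transgenic hippocampus and 9.36 to 9.67 in ICR hippocampus. The difference was 0.22 with a 95% interval from 0.01 to 0.42 and an adjusted p of 0.11. It passed the threshold without the 17-month cortex array (0.29, adjusted p = 0.0363) and with another background correction. On the 17-month array the dimmer Grin1 probe, A_55_P2033366, was at its lowest, 5.99. The brighter probe, A_65_P18935, was at its highest there, 12.78. Grin2c, known mainly from cerebellum and from astrocytes of the forebrain, ranged from 11.56 to 12.08 in cortex, 11.83 to 12.16 in transgenic hippocampus and 11.93 to 12.03 in ICR hippocampus. Its difference of -0.14 had a 95% interval from -0.36 to 0.08 (adjusted p = 0.31), and its ICR arrays spanned 0.10, the smallest range of any gene in any set among the 10.

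The metabotropic receptors Grm3 and Grm5 differed in opposite directions. Grm3, a Gi-coupled receptor found on neurons and astrocytes, was 10.75, 11.00, 10.82 and 10.86 in cortex from 1.5 to 22 months. It was 10.01 in NCSTN, 10.18 in MAPT and 9.35 in 5×FAD hippocampus, and between 9.84 and 10.32 on the ICR arrays. Every hippocampus array was below every cortex array, and 5×FAD was again the lowest. The difference was 0.88 (SE 0.15, adjusted p = 0.00166), 1.84-fold higher in cortex, and 0.75 (adjusted p = 6.97e-04) without the 5×FAD array. It was 1.01 against the transgenic set (SE 0.19, adjusted p = 0.00466), 0.76 there without 5×FAD (adjusted p = 0.0071), and 0.74 against the ICR set (SE 0.17, adjusted p = 0.00545). Of 8 astrocyte markers, 1 was higher and 4 were lower in cortex, with summed signals of 230205 to 236256 in cortex, 231731 to 291251 in transgenic and 220658 to 259580 in ICR hippocampus. Of 8 neuron markers, 3 were higher in cortex and none was lower, with sums of 270964 to 296957, 241685 to 261755 and 227437 to 259376 in the same order. The part of either cell type in the receptor differences was not tested.

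Grm5, the Gq-coupled receptor tied to Homer proteins at the edge of the synapse, was 10.08, 9.93, 10.29 and 10.13 in cortex from 1.5 to 22 months. It was 10.43 in NCSTN, 10.79 in MAPT and 10.48 in 5×FAD hippocampus, and between 10.50 and 10.81 on the ICR arrays. The sets did not overlap, although the 17-month cortex array came close to the NCSTN array. The difference was -0.52 (SE 0.10, adjusted p = 0.00264), 1.44-fold lower in cortex, with -0.46 against the transgenic set (adjusted p = 0.0275) and -0.59 against the ICR set (adjusted p = 0.00161). The call against the transgenic set was lost with 4 of 7 arrays left out in turn, with adjusted p-values up to 0.09. Over both sets, 2 of its 3 probes were called. A_55_P2033425 gave -0.82 (adjusted p = 1.96e-04) and A_55_P2112464 gave -0.65 (adjusted p = 0.00164), while A_55_P2316783 gave -0.11 (adjusted p = 0.59). Against the transgenic set the 3 probes gave -0.65 (adjusted p = 0.00572), -0.42 (adjusted p = 0.062) and -0.30 (adjusted p = 0.26) in the same order, and against the ICR set A_55_P2316783 gave 0.08. The transcripts each probe detects were not compared here.

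**Figure D3:**
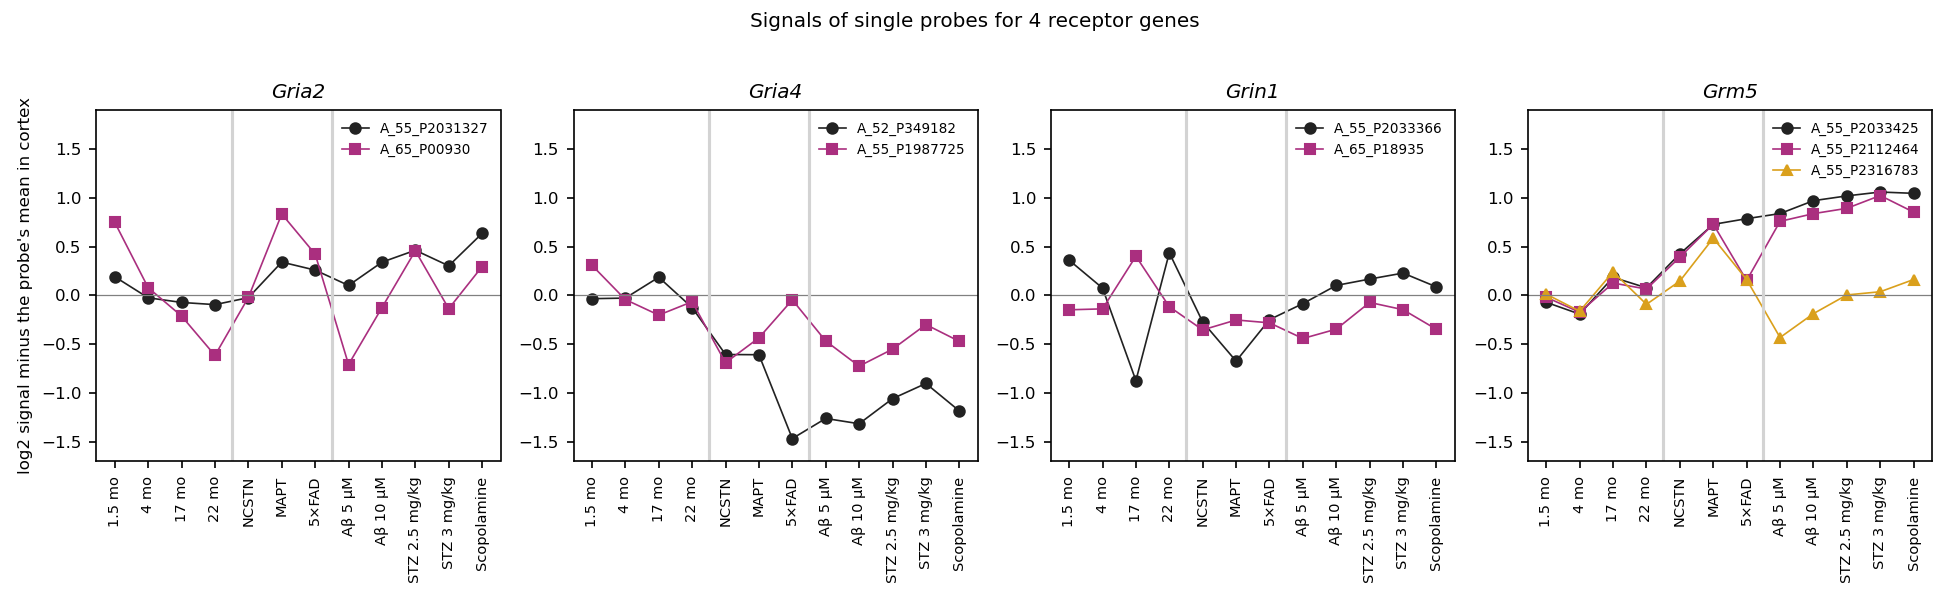
Log2 signal of each probe minus its own mean over the cortex arrays (y axis) on the 12 arrays (x axis), for 4 genes whose probes did not run together, with grey lines between the sets and connecting lines only to guide the eye. Probes A_55_P2033425 and A_55_P2112464 of Grm5 rise above 0 on every hippocampus array, while A_55_P2316783 lies above 0 on the transgenic arrays and below it on both Aβ arrays. Both Gria2 probes are lower at each later cortex age, A_65_P00930 by more.

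Probes of the other genes with a pair of probes were compared in the same way. For Grin2a, A_55_P1980481 gave -0.50 (adjusted p = 0.0219) and A_55_P1974035 gave -0.43 (adjusted p = 0.094). For Gria2, A_55_P2031327 was lower in cortex than in ICR hippocampus at -0.37 (adjusted p = 0.0383), while A_65_P00930 gave 0.04. For Grin2b, A_52_P1044964 gave -0.51 against the ICR set (adjusted p = 0.0136) and A_51_P320357 gave -0.22 (adjusted p = 0.17). For Grin1, the probes gave 0.15 and 0.28 between cortex and hippocampus, neither called.

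Of all genes, 16.6% passed between cortex and transgenic hippocampus and 36.5% between cortex and ICR hippocampus. Of the receptor genes, 5 passed in the former (Gria1, Gria3, Gria4, Grm3 and Grm5) and 7 in the latter, the same 5 with Grin2a and Grin2b. Between the transgenic and ICR hippocampus sets 11.8% of all genes passed and none of the 10 receptor genes did, although 2 had an unadjusted p under 0.05. Transgenic minus ICR was -0.35 for Grin2b (95% interval -0.62 to -0.08, adjusted p = 0.084) and -0.26 for Grin1 (95% interval -0.51 to -0.02, adjusted p = 0.14). Without the array for Aβ at 5 µM, the lowest ICR array for Grin2b, that gene was called at -0.44 (adjusted p = 0.0202). Grm5 was at -0.14, but its probes had opposite signs. A_55_P2112464 alone was called at -0.45 (adjusted p = 0.0455). A_55_P2033425 gave -0.34 (adjusted p = 0.075) and A_55_P2316783 gave 0.38 (adjusted p = 0.14). The deposited value table, in which the ICR arrays, the 5×FAD array and the remaining arrays follow different distributions, gave 2 called receptor genes here.

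Age in cortex was examined by setting the 17- and 22-month arrays against the 1.5- and 4-month arrays. No gene of the 10 was called, and the share of all 19648 genes called was 0%, although 1135 had an unadjusted p under 0.05, none of them a receptor gene. The spread was taken from 4 arrays only, and with the spread of all 12 arrays 22 genes were called, none of them a receptor gene. When the same fit was run on simulated data, 0% of genes changed 2-fold were called. The lack of a call therefore cannot exclude a change of that size. Gria2 had the largest difference, -0.50 with a 95% interval from -1.10 to 0.11 (adjusted p = 0.86), its cortex values of 9.77, 9.33, 9.16 and 8.95 being lower at each later age. Both probes, read on the same 4 arrays, had that order, and the share of all genes in such an order is not given here. Probe A_65_P00930 was at 10.22, 9.56, 9.26 and 8.86 at 1.5, 4, 17 and 22 months, and probe A_55_P2031327 ran over a narrower range, at 9.32, 9.11, 9.06 and 9.04. Without the 1.5-month array the Gria2 difference was -0.28, and without the 4-month array it was -0.72. The other 9 genes had differences between -0.10 and 0.20, with 95% intervals that lay between -0.62 and 0.68. Probes pointed in opposite directions for Grin1 (-0.44 and 0.29), Gria3 (0.06 and -0.18), Gria4 (0.06 and -0.27) and Grin2b (-0.04 and 0.10). Tissue markers differed between these arrays too. The summed signal of 6 choroid plexus markers was 156, 208, 49849 and 365 at 1.5, 4, 17 and 22 months. That of 6 oligodendrocyte markers was 63730, 120496, 58930 and 93125 in the same order. The part of these tissues in the age differences was not tested.

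Each array was next expressed relative to the average of its companions within the set, a value without a test since each model has 1 array. Of these 120 ratios, 4 reached 1.5-fold, against 13.4% of all ratios over all genes. One was Gria2 in 1.5-month cortex, at a log2 ratio of 0.63, where 11.4% of all genes passed 1.5-fold. The other 3 were on the 5×FAD array, where 26.8% of all genes passed: Gria3 at -0.85, Grm3 at -0.75 and Grin2a at -0.61. Both Gria3 probes and both Grin2a probes were lowest of the transgenic arrays on 5×FAD, at 9.15 and 11.08 for Gria3 and at 7.94 and 11.05 for Grin2a. The count depends on the arrays it is set against: without the MAPT array it was 7, with the brightest probe of each gene 7, with normexp background correction 2 and at 2-fold 0.

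**Figure D4:**
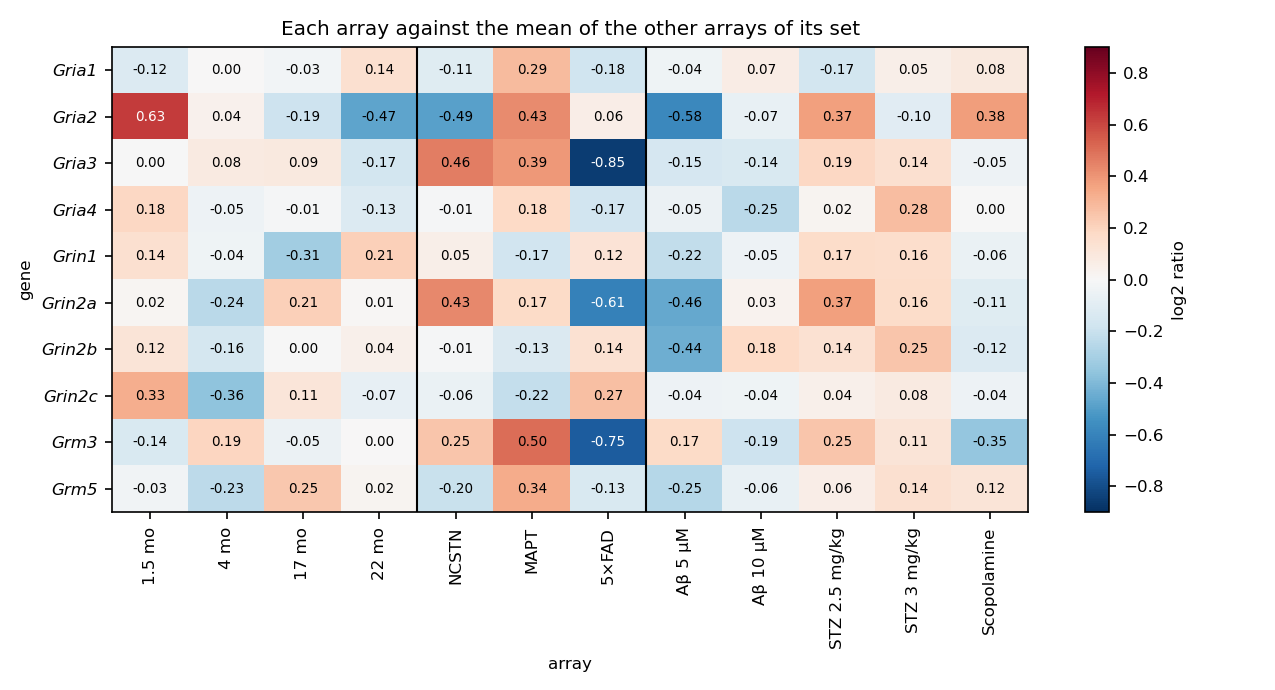
Log2 ratio of each array (columns) to the average of its companions in the set for each receptor gene (rows), printed in each cell, with black lines between the sets. The deepest cells are Gria3 (-0.85), Grm3 (-0.75) and Grin2a (-0.61) on the 5×FAD array and Gria2 (0.63) in 1.5-month cortex.

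The 5×FAD array had a median ratio of -0.15 over the 10 receptor genes, and Gria1, Gria4 and Grm5 were at -0.18, -0.17 and -0.13. Grin2c and Grin2b were at 0.27 and 0.14. Probes of Gria4, Grin2b and Grm5 did not run together on this array. Gria4 probe A_52_P349182 was at 8.29, against 9.15 on NCSTN and 9.15 on MAPT, while A_55_P1987725 was at 11.14, against 10.49 and 10.75. Grin2b probe A_51_P320357 was highest of the transgenic arrays on 5×FAD and A_52_P1044964 was lowest. Of the Grm5 probes, A_55_P2033425 was highest on 5×FAD, A_55_P2112464 lowest and A_55_P2316783 in between. The 14 other glutamate receptor genes measured, given below, had a median of -0.34 there, with 6 of them past 1.5-fold in either direction. On the same array 3 of 6 microglia markers and 3 of 8 astrocyte markers were more than 1.5-fold higher than on NCSTN and MAPT, and of 8 neuron markers 1 was higher and 1 lower, with a median ratio of -0.01. The summed microglia signal was 25473 on 5×FAD against 10252 on NCSTN and 10204 on MAPT, and the summed astrocyte signal was 291251 against 231731 and 233661. Their part in the receptor ratios was not tested.

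NCSTN and MAPT differed little in these genes. Gria2 was 9.28 in NCSTN and 9.89 in MAPT, a log2 difference of 0.61, and was the only receptor gene of the 10 past 1.5-fold between these 2 arrays, a limit that 10.3% of all genes passed. The remaining 9 genes had differences between -0.17 and 0.36, the latter that of Grm5. On the MAPT array the median ratio of the 10 genes to the other transgenic arrays was 0.23, with Grm3 at 0.50. Both values rest in part on the remaining transgenic array, which stood apart over all genes and had the lowest Grm3 level. Against NCSTN alone, Grm3 was higher in MAPT by 0.17, and the differences of the 10 genes were of both signs.

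Within ICR hippocampus, Aβ at both doses was set against streptozotocin at both doses. None of the 10 genes was called, and 0% of the 19648 genes tested were, although 2474 had an unadjusted p under 0.05. The call count over all genes depended on the processing and reached 268 with the spread of all 12 arrays, with no receptor gene among them. Run on simulated data, this fit also called 0% of genes changed 2-fold, so the lack of a call cannot exclude such a change. The 95% interval of Gria2 ran from -1.08 to 0.34, and those of the other receptor genes lay between -0.94 and 0.38. In this comparison 9 of the 10 receptor genes were lower after Aβ, with a median difference of -0.24 against -0.03 over all genes. For 6 of them (Gria3, Gria4, Grin1, Grin2a, Grin2c and Grm5) both Aβ arrays were below both streptozotocin arrays, as for 27.4% of all genes, and in either direction the pairs of arrays did not overlap for 47.2% of all genes. Tissue markers differed as well. The summed signal of 6 choroid plexus markers was 181745 and 192290 after Aβ at 5 and 10 µM and 3252 and 5272 after streptozotocin at 2.5 and 3 mg/kg, and that of 5 cortex markers was 3525 and 3696 after Aβ and 4618 and 4053 after streptozotocin. The median log2 difference, Aβ minus streptozotocin, was 5.41 for the choroid plexus markers and -0.59 for the cortex markers. As 0% of all genes were called, the lack of a marker call says nothing about the size of these differences. The part of these tissues in the receptor differences was not tested. Gria3 had the only unadjusted p under 0.05. It was 10.55 and 10.56 after Aβ at 5 and 10 µM and 10.82 and 10.78 after streptozotocin at 2.5 and 3 mg/kg, and the difference was -0.25 with a 95% interval from -0.45 to -0.05 (adjusted p = 0.34). The lowest values were on the array for Aβ at 5 µM, with ratios to the other ICR arrays of -0.58 for Gria2, -0.46 for Grin2a and -0.44 for Grin2b, whereas Aβ at 10 µM gave -0.07, 0.03 and 0.18. Scopolamine gave ratios from -0.35 for Grm3 to 0.38 for Gria2. No ratio of an ICR array reached 1.5-fold in these genes.

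By median range, the receptor genes did not vary more within a set than all genes did. The genes compared include dimmer ones, and the comparison was not matched for signal level. The median range between the highest and lowest array of a set was 0.29 for the 10 genes against 0.39 for all genes in cortex, 0.34 against 0.45 in transgenic hippocampus and 0.37 against 0.41 in ICR hippocampus. Of the 10 genes, 3, 4 and 5 varied more than the median gene in these sets, and Gria2 had the widest range in cortex and in ICR hippocampus.

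The receptor partners were examined in 4 lists drawn up by function. Among 14 auxiliary subunits of AMPA and kainate receptors, 6 were higher and 4 lower in cortex, with a median difference of 0.25 against 0.01 for all genes. Against the ICR set alone 5 were higher and 5 lower, with a median of -0.03, and against the transgenic set alone 5 were higher and 3 lower, with a median of 0.45. Shisa6, which limits AMPA receptor desensitization, had the largest difference at -4.04 (adjusted p = 4.82e-10), with set means of 8.09 in cortex, 12.14 in transgenic and 12.12 in ICR hippocampus. Cacng5 (-1.23) and Neto1 (-0.59), the latter a kainate receptor partner, were also lower in cortex. Gsg1l at 1.91, and Cacng3 at 1.76 and Cacng4 at 1.04, both of the TARP family that brings AMPA receptors to the surface, were higher.

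Of 15 other receptor genes, 14 were tested (all but Grm6), and 5 were higher and 2 lower in cortex, with a median of 0.16, and against the ICR set alone also 5 and 2, with a median of 0.20. The presynaptic group III receptors Grm8 at 1.69 and Grm4 at 1.55 and the kainate receptor subunit Grik3 at 1.08 were higher. The kainate receptor subunits Grik4 at -0.98 and Grik1 at -0.45 were lower. Of 19 scaffold and signalling genes, all tested, 7 were higher and 4 lower, with a median of 0.33, and against the ICR set alone 6 and 4, with a median of 0.25. Homer1 at 1.12 and the synaptic scaffolds Dlg1 at 0.86 and Dlg2 at 0.75 were higher, while Homer3 at -1.44, Camk2b at -0.54 and Grip1, which binds AMPA receptor tails, at -0.45 were lower. Among 7 glutamate transporters the differences were small: the vesicular transporter Slc17a7 was higher at 0.35, Slc1a3 and Slc1a1 were lower at -0.28 and -0.24, and 4 were not called, with a median of -0.24. Against the ICR set alone none of the 7 was higher and 2 were lower, Slc1a6 (-0.36) and Slc1a3 (-0.33), with a median of -0.17. Of the partner genes named, Slc17a7, Slc1a1 and Grip1 were not called against the ICR set alone. The share called over all genes, 30.4%, or 36.5% against the ICR set alone, is to be set beside each of these counts.

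**Figure D5:**
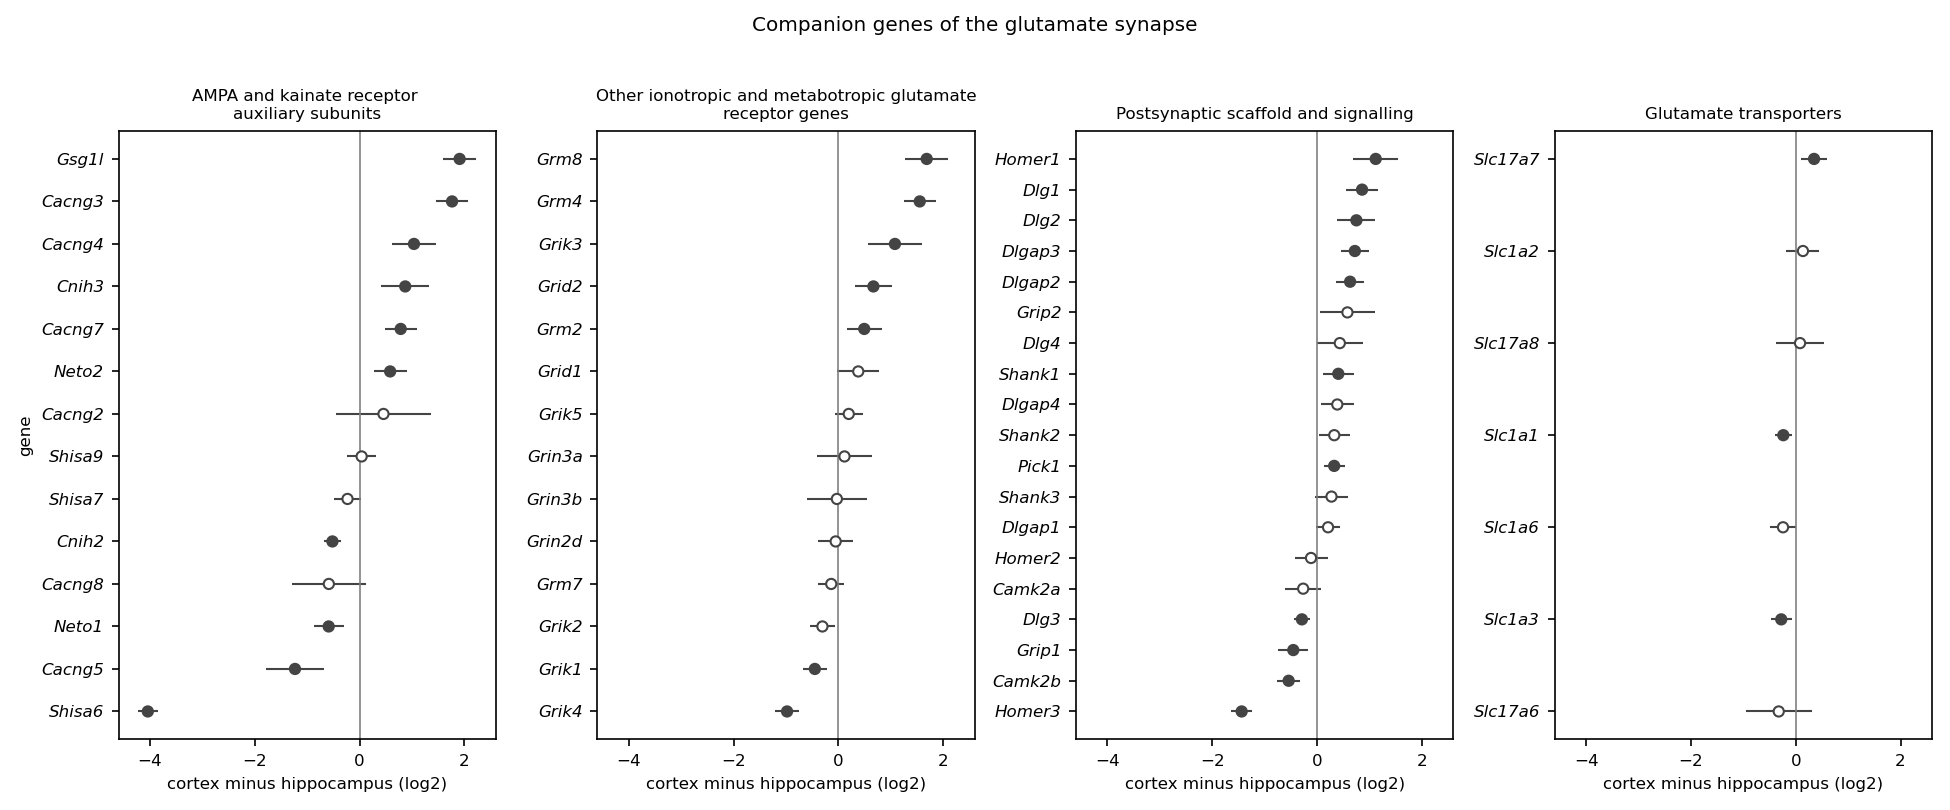
Cortex minus hippocampus difference in log2 signal (x axis) of the auxiliary subunits, the other receptor genes, the scaffold and signalling genes and the glutamate transporters (one panel each, genes in rows), with 95% intervals. Filled points passed an adjusted p of 0.05. Shisa6 lies at -4.04, beyond every other gene shown, and Gsg1l, Cacng3 and Grm8 lie highest.

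Other tissue markers also moved with region. Of 6 choroid plexus markers, 4 were lower in cortex, with a median of -4.66 and summed signals of 156 to 49849 in cortex, 103401 to 135190 in transgenic and 3252 to 192290 in ICR hippocampus. Of 5 striatum markers, 3 were higher in cortex, of 4 thalamus markers 3 were lower, of 4 cerebellum markers 1 was lower, of 6 oligodendrocyte markers 2 were lower, and of 6 microglia markers none was called. Against the ICR set alone 4 choroid plexus markers, 3 thalamus, 2 cerebellum and 1 oligodendrocyte marker were lower and 4 striatum markers higher in cortex, as were 4 of 5 cortex markers, while 7 of 9 hippocampus markers were lower. Of the cell markers given above, 2 neuron markers and 1 astrocyte marker were higher and 2 astrocyte markers lower. Dsp, a dentate marker, was not well above background on any cortex array, nor was the cerebellar Cbln3 on any array. Their part in the receptor differences was not tested.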

How the data were processed

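RNA of 3 animals per array was hybridized to 12 one-colour Agilent Mouse Whole Genome 44K arrays. Per the file headers, the authors deposited Feature Extraction output with a background-treated processed intensity, median foreground and background intensities and quality flags for each spot; the labels name Cy5, although the columns are those of the green channel, and the files give neither slide nor scan date. A deposited value table holds the authors' quantile-normalized intensities, which follow 1 distribution for 6 arrays, another for 5×FAD and yet another for ICR. No genome build is given in the sources used here.

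The log2 processed signal of unflagged spots was averaged per probe. Probes with foreground at least 1.4-fold over background on all 12 arrays were kept (36520 of 39429) and quantile normalized, as in the methods. Accessions were matched to RefSeq symbols for 27508 probes, and probes of a gene were averaged on the log2 scale, giving 19648 genes, 5168 of them with 2 or more probes. limma 3.58.1 in R 4.3.3 was fitted with the 3 sets as groups, and separately on the 4 cortex arrays for age. For Aβ against streptozotocin it was fitted on the 5 ICR arrays, with scopolamine as a group of its own. p-values were adjusted over all genes by the Benjamini-Hochberg method, with a threshold of 0.05, and intervals are 95%. The number of arrays limits the precision, and no control spots or flagged outlier spots were used. The scripts were tested on simulated data, with 200 genes changed 2-fold in each comparison. Between sets 58.5% to 67% of them were recovered, but 0% for age and 0% for Aβ against streptozotocin. Since the files hold no mean foreground signal, the normexp alternative (offset 50) used the median signal. The 10 genes, and the lists of companion and marker genes, were chosen with earlier results of these data known. All 10 genes were named, and from each companion list up to 3 called genes in each direction with the largest differences. Some listed genes and model details are not reported here and are left out of the list counts. Alternatives were 75th-percentile scaling, normexp, the deposited table, no filter, a filter on probes well above background, the brightest probe, leaving out each array, stricter thresholds, a fit of cortex against all hippocampus arrays, a spread taken from all 12 arrays and, chosen after seeing the data, each probe alone.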

Additional observations from a re-analysis of the deposited data

How the results depend on the processing

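The counts of receptor genes called between cortex and hippocampus (6), cortex and transgenic hippocampus (5) and cortex and ICR hippocampus (7) stayed within 1.5 times of these values under every alternative run, and Gria1, Gria3, Gria4, Grm3 and Grm5 kept their call between cortex and the combined hippocampus sets with each array left out in turn. Single calls could still be lost within that limit. At an adjusted p of 0.01, Grin2a lost both its calls, Grin2b its call against the ICR set and Grm5 that against the transgenic set. Between the transgenic and ICR sets, 0 receptor genes were called, 2 in the deposited table, and 0 to 1 with an array left out, the 1 being Grin2b without the 5 µM Aβ array. The count of array ratios past 1.5-fold, 4, was 2 with normexp, 7 with the brightest probe, 0 at 2-fold and 3 to 7 with an array left out, 7 without MAPT. Some differences turned sign. Grin2b between cortex and transgenic hippocampus (-0.01) was 0.0017 with 75th-percentile scaling, 0.060 with normexp, 0.091 with probe A_51_P320357 alone, and -0.057 to 0.032 with an array left out. In the deposited table Grin2b was 0.015 between cortex and ICR hippocampus (-0.37 and called otherwise) and 0.055 between the hippocampus sets (-0.35 otherwise), and Grm5 between cortex and ICR hippocampus (-0.59) was 0.083 with probe A_55_P2316783 alone. The cause was not tested in any of these. Grin2a between cortex and hippocampus was not called in the deposited table (-0.38, adjusted p = 0.069). With the brightest probe Gria4 was not called between cortex and transgenic hippocampus (0.39, adjusted p = 0.13).

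Over all genes, the adjusted threshold of 0.01 left 3343 of 5968 genes called between cortex and hippocampus, 1480 of 3256 against the transgenic set, 4386 of 7166 against the ICR set and 679 of 2327 between the hippocampus sets. The last count was also 4179 with 75th-percentile scaling, 7372 in the deposited table, and 1063, 1445 and 1511 without MAPT, 10 µM Aβ and 3 mg/kg streptozotocin. Between Aβ and streptozotocin the count of 0 became 49 with 75th-percentile scaling, 249 with normexp, 147 in the deposited table, 72 among probes well above background and 268 with the spread of all 12 arrays, and between old and young cortex it became 22 with that spread. Scaling to the 75th percentile moved the median gene between cortex and ICR hippocampus to -0.12, and the deposited table moved it between Aβ and streptozotocin to -0.19.

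No paired analysis was possible because replicate numbers were given in accession order and pair no samples. A slide or scan block was not run, as the files give neither. The receptor probes were well above background on all 12 arrays, but 1 array per model leaves the spread within a model unmeasured.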
